A study of Mus musculus with 4 samples.

Results

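Accessible chromatin was described at 37 mouse genes of the sarcomere and of cardiac contraction, out of 21887 protein-coding genes in the annotation. They comprised 4 tropomyosin genes, 4 troponin genes, 7 genes of myosin and its binding protein, 5 genes of the actin filament, 8 genes of the Z-disc, titin and the M-band, 6 calcium-handling genes, the 2 natriuretic peptide genes Nppa and Nppb, and the coactivator Myocd. The list was chosen from these data, after the highest ranked region that both wild-type (WT) lists and neither miR-187 list held had been found inside Tpm1. The ranks of the Tpm1 peaks in the WT lists and their absence from the miR-187 lists were therefore used in the choice, and are given as a description with no test. A peak was assigned to a gene when its summit, the base with the highest read pileup, lay inside the gene or within 10 kb of either boundary. By this rule 25 of the 37 genes had 65 peaks in all, and 12 genes had none. The share of all genes with a peak in any list is not given here, so these counts only describe the list. Shares per library are set beside those of all genes below.

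In a sarcomere, myosin motors of the thick filament pull on actin thin filaments, and tropomyosin lies along the actin and covers the myosin-binding sites until calcium binds to the troponin complex. The thin filaments are anchored in the Z-disc, titin spans from the Z-disc to the M-band, and calcium for each beat enters through a surface channel, is released from the sarcoplasmic reticulum and is pumped back. Most of these genes are transcribed in cardiomyocytes and not in endothelium, although Tpm1 to Tpm4 also give shorter isoforms to the actin cytoskeleton of non-muscle cells, some of them from start sites inside the gene.

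Accessibility was measured with ATAC-seq, a method that inserts sequencing adapters into open DNA with a transposase. There were 2 libraries from WT mice and 2 from miR-187 mice, which carry an extra copy of the miR-187 gene at the Rosa26 locus under the endothelial Tek (Tie2) promoter and were made on a C57BL/6J background. The sample labels name heart as the tissue, whereas the study's text describes CD31 bead-labelled endothelial cells of newborn hearts. The labels do not give the zygosity of the miR-187 animals, and the study's text describes the knock-in mice of its accessibility comparison as homozygous (KI/KI). Whether a library pooled several animals is not given in the sources used here. Peaks were listed separately for each library, and nothing says whether the 2 libraries of a group came from separate animals.

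Values of the 4 libraries are given in one order throughout, WT before miR-187 and replicate 1 before 2. The lists held 9452, 12298, 7496 and 1483 peaks, and the background read density inferred from the peak values was 1751, 5227, 2016 and 1032 reads per Mb. The deepest library (the second of WT) thus had 5.06 times the density of the shallowest (the second of miR-187). The latter also stands apart by its short list, so counts are given per library and the regions are given with and without it. Of 18 endothelial marker genes, 7, 12, 8 and 2 had a peak (38.9%, 66.7%, 44.4% and 11.1%, against 38%, 47.1%, 33.5% and 6.75% of all protein-coding genes), and 25 of their 32 regions were in 1 library. Of 6 erythroid genes none had a peak. An exact permutation test of 2 against 2 libraries (2-sided) has 0.333 as its smallest p, and no group comparison was tested.

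Because the peaks were few and many lay away from start sites, the listed start sites are shown first. A start was listed for 31 of the 37 genes, and 40 starts in all. None was listed for Tcap, Myom2, Atp2a2, Myocd, Xirp1 and Nexn. The following windows run from 250 bases before to 50 after the start, 5′ to 3′ on the gene's strand (RefSeq, GRCm38.p6), with CpG dinucleotides in capitals, since starts with a peak had more of them than most starts of the list. The first 4 windows had a peak within 1 kb in 1 or more libraries, and the last 3 had none in any.
Tpm3, internal start, chr3:90079271-90079570, plus strand: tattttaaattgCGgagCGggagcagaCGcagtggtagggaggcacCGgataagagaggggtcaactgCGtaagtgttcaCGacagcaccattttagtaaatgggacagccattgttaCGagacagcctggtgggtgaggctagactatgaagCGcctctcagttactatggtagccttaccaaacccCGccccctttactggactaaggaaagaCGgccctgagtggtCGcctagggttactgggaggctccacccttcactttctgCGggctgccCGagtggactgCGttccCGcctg
Tpm2, chr4:43523505-43523804, minus strand: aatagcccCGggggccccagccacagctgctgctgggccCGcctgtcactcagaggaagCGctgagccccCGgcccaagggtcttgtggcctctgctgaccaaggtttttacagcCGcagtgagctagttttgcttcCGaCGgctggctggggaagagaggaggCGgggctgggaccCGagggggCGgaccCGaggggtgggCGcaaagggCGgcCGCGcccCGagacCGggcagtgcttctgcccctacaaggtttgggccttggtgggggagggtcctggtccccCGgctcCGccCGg
Tpm4, chr8:72135038-72135337, plus strand: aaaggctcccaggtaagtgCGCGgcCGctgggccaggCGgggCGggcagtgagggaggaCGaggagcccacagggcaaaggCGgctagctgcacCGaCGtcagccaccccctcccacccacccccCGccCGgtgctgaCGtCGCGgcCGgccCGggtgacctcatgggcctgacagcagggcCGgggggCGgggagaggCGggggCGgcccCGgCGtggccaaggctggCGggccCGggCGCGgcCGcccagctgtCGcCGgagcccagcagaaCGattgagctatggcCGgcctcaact
Des, chr1:75360042-75360341, plus strand: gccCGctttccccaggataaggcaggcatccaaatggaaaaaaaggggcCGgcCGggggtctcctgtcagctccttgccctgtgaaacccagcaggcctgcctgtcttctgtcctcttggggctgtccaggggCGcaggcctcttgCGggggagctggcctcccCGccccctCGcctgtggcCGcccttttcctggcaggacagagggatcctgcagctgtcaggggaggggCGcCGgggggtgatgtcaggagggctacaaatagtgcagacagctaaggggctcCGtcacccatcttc
Tpm1, chr9:67049164-67049463, minus strand: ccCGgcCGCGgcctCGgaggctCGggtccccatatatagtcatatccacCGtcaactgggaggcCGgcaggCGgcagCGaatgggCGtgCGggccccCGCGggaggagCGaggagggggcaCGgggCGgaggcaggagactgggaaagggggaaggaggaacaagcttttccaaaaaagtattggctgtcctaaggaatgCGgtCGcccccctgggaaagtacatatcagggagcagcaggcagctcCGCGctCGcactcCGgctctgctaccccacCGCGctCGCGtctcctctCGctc
Tpm3, upstream start, chr3:90072401-90072700, plus strand: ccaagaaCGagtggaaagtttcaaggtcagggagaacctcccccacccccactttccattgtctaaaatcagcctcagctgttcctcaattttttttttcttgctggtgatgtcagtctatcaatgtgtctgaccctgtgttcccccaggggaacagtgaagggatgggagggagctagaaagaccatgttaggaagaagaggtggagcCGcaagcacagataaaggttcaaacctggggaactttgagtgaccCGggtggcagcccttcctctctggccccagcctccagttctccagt
Myh6, chr14:54966558-54966857, minus strand: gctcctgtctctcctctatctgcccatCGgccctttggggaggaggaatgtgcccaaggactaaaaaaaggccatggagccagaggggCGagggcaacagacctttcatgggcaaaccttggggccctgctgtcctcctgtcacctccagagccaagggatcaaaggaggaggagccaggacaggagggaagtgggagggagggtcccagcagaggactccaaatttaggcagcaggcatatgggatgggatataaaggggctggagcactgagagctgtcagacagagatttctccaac

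These windows held 15 CpG at the internal Tpm3 start, 20 at Tpm2, 31 at Tpm4 and 11 at Des. The Tpm1 window held 27, the upstream Tpm3 window 3 and the Myh6 window 2. The Tpm1 window was thus within the range of the 4 windows with peaks (11 to 31) but had no peak within 1 kb in any library.

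Across the whole list, 12 and 20 genes had a peak in the WT libraries, and 13 and 1 in the miR-187 libraries. The WT mean was 16 ± 5.66 genes and the miR-187 mean 7 ± 8.49 (SD, n = 2 each). The groups overlapped, since the first miR-187 library lay between the WT libraries and only the second lay below both. As shares these counts were 32.4%, 54.1%, 35.1% and 2.70% of the 37 genes. Among all 21887 protein-coding genes, 38%, 47.1%, 33.5% and 6.75% had a peak. The contraction genes thus stood below all genes in 2 libraries (WT replicate 1 and miR-187 replicate 2) and above them in the other two. Corrected for the length searched, they had 6.12, 7.0, 5.54 and 0.291 peaks per Mb, against 5.97, 8.10, 4.93 and 0.872 per Mb for all genes. With an equal number of peaks per list, 2, 4, 1 and 1 of the 37 genes had a peak. Thinned to the depth of miR-187 replicate 2, the expected numbers of genes were 8.58, 4.30, 7.16 and 1. The whole lists were then expected to hold 5481, 2287, 4268 and 1483 peaks. The shares of all protein-coding genes at these settings are not given here, so these counts cannot be set against all genes.

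**Figure D1:**
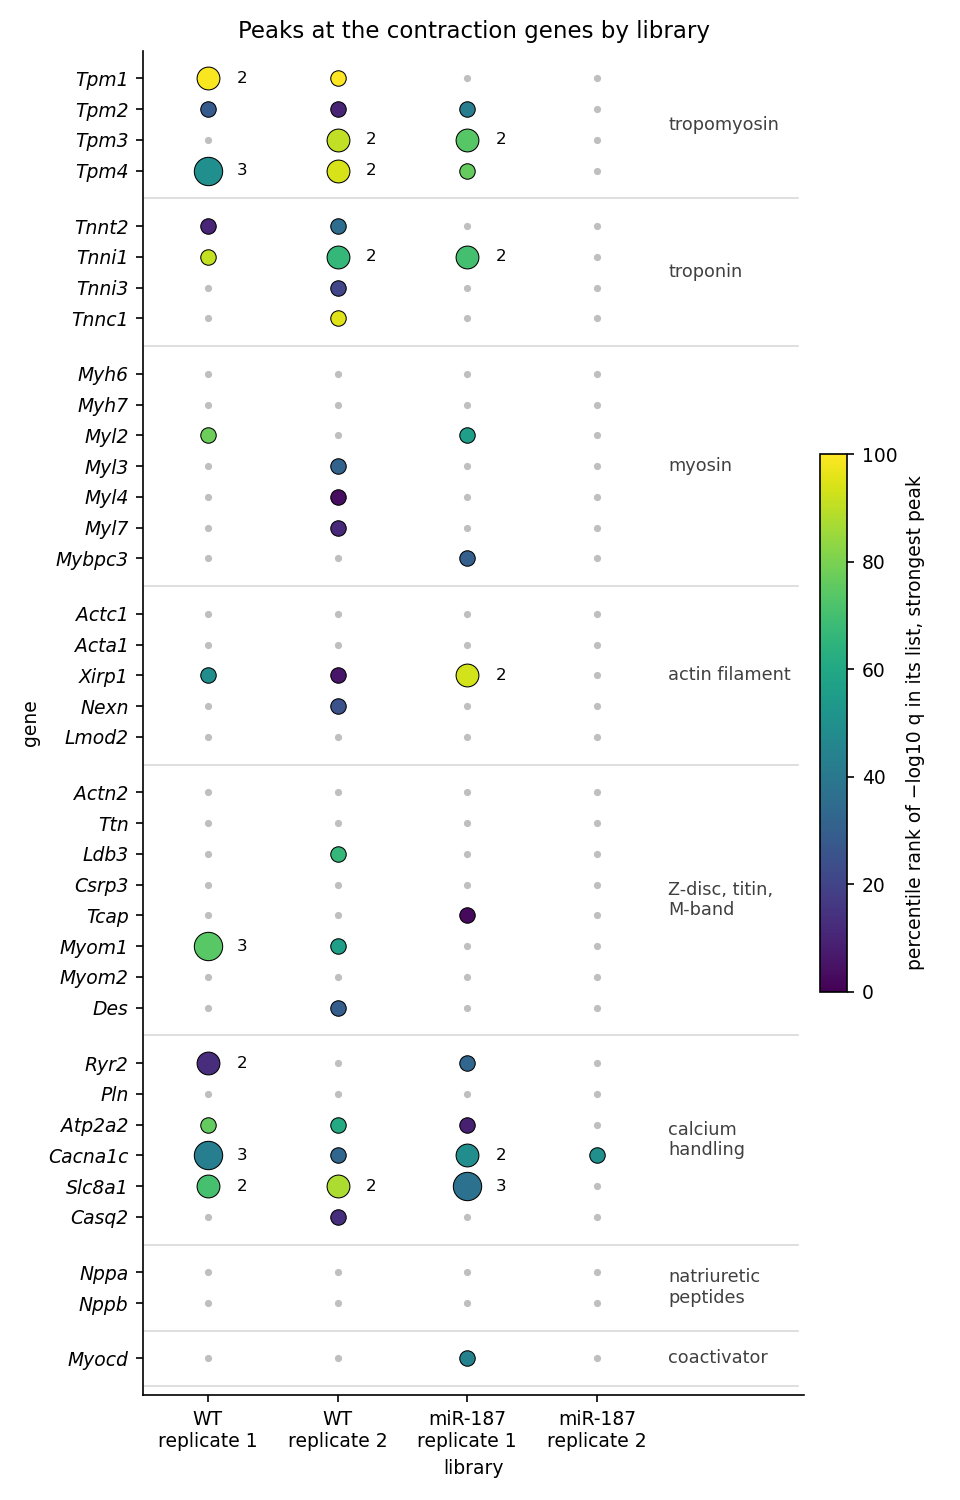
Peaks at the 37 contraction genes (rows, grouped by role) in the 4 libraries (columns). Filled circles mark a gene with a peak, their area grows with the number of peaks (printed where above 1), their colour is the percentile rank of the strongest peak by −log10 q within its list, and small grey dots mark no peak. Only Cacna1c has a peak in miR-187 replicate 2, and the Tpm1 peaks in the WT lists have the highest ranks.

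At listed starts the contraction genes had lower shares than all genes, as did some other lists. A peak within 1 kb of a listed start was found for 1 of 31 genes in the first WT library (Tpm4), for 3 in the second (Tpm3, Myl4 and Des), for 2 in the first miR-187 library (Tpm2 and Tpm3) and for 0 in the second. These were 3.23%, 9.68%, 6.45% and 0%, where all 17492 genes with a listed start gave 22.4%, 32.2%, 21% and 3.23%. The share of the contraction genes was lower in each of the 4 libraries. It was likewise 8.33%, 12.5%, 8.33% and 0% for 24 further contraction genes with a listed start (such as the kinase gene Camk2d), and 10%, 20%, 10% and 0% for 10 endothelial markers, so a low share at starts was not particular to the 37 genes. For 5 fibroblast genes the share was 40%, 40%, 20% and 0%, above that of all genes in the WT libraries. Of the 65 peaks, 34 lay inside the gene and 31 outside it, and 14 (21.5%) lay within 1 kb of the gene's own start or boundary. Another gene had a boundary within 1 kb of 12 peaks, 2 of them among these 14, and 3 of the 12 were at Dcp1b, 3 at Rab8a, 2 at Arhgef39, 2 at Myl12a, 1 at Spi1 and 1 at Cdc27. The 5 genes longer than 100 kb (Ttn, Myom1, Ryr2, Cacna1c and Slc8a1) held 21 of the 65 peaks, although Ttn had none.

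The strongest peaks were at Tpm1, which encodes the main tropomyosin of cardiac muscle and lies at chr9:67022590-67049672 on the minus strand (mm10). In WT replicate 1 a peak at chr9:67043767-67044108 had a fold enrichment over local background of 9.05 and a −log10 q of 11.1. In WT replicate 2 a peak at chr9:67043553-67044247 had a fold enrichment of 8.26 and a −log10 q of 20.4. Neither miR-187 list had a peak there. The summits lay 5270 and 5148 bp downstream of the listed start, inside the gene, and so not at the start window printed above. Ranked by −log10 q, these peaks were number 76 of 9452 and number 29 of 12298, which placed them at percentiles 99.2 and 99.8 of their lists. The inferred pileup at the summit was 18 reads in WT replicate 1 and 39 in WT replicate 2. WT replicate 1 alone had a second Tpm1 peak, at chr9:67035999-67036198, 13179 bp downstream of the start, with a fold enrichment of 5.41.

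The Tpm1 pileups were set beside the depth of the miR-187 libraries. Rescaled by the ratio of background densities, the WT pileups at the Tpm1 region came to 20.7 reads (from WT replicate 1) and 15.0 (from WT replicate 2) at the depth of miR-187 replicate 1. At the background scaled in the same way, a peak needed 7 or 8 reads there. At the depth of miR-187 replicate 2 the rescaled pileups were 10.6 and 7.70 reads, where 6 were needed. The rank for which Tpm1 was picked rests on the same pileups, so that it passed the needed number in all 4 cases was largely fixed by the choice and supports nothing about the missing peak.

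Tpm3, which gives the slow skeletal muscle tropomyosin and several cytoskeletal ones, had peaks at its internal start. In WT replicate 2 the peak at chr3:90079219-90079677 had its summit at −24 bp from that start, with a fold enrichment of 6.12 and a −log10 q of 9.36. In miR-187 replicate 1 the peak at chr3:90079331-90079627 had its summit at 8 bp, with 4.37 and 2.75. A second region began at chr3:90080125 and ended at 90080472. Its summits lay 741 bp after the internal start in WT replicate 2 (fold enrichment 3.96) and 757 bp in miR-187 replicate 1 (5.64). The first of the 2 regions thus had the higher fold in WT replicate 2 and the second in miR-187 replicate 1, and neither had a peak in WT replicate 1 or miR-187 replicate 2. No list had a peak within 1 kb of the upstream start, whose window held 3 CpG.

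Tpm2, the gene of beta-tropomyosin, had a peak at its start in miR-187 replicate 1 only, at chr4:43523523-43523755 with a fold enrichment of 5.49. Both WT lists had a peak beyond its 3′ end, in a WT-only region at chr4:43508680-43508990 that lies at a boundary of Arhgef39. The fold enrichment there was 4.82 in WT replicate 1 and 4.10 in WT replicate 2. Tpm4, whose main product is a cytoskeletal tropomyosin, had a WT-only region at chr8:72136608-72137000, with summits 1639 and 1432 bp after the start. The fold enrichments were 3.85 and 4.75, and the percentile ranks were 6.46 in WT replicate 1 and 61.5 in WT replicate 2, so that at least the former peak was among the weakest of its list. WT replicate 1 also had a peak 602 bp after the Tpm4 start (fold enrichment 4.62). Within 10 kb of the 3′ end of Tpm4, 3 lists had a peak near Rab8a. WT replicate 2 (7.43-fold) and miR-187 replicate 1 (6.25-fold) overlapped there, and the WT replicate 1 peak (5.15-fold) lay next to them without overlap.

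**Figure D2:**
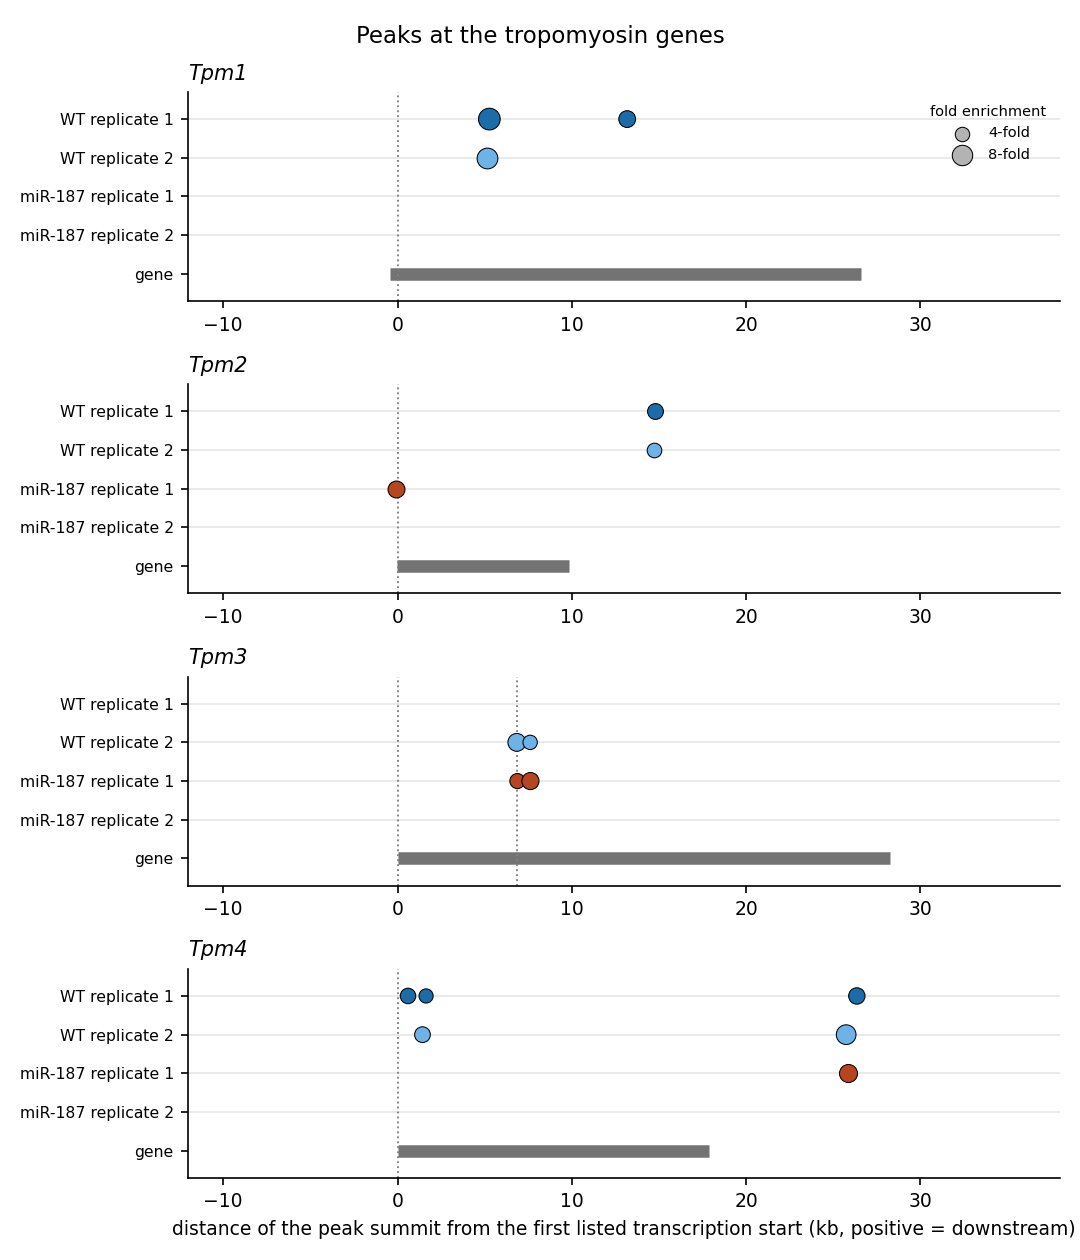
Peak summits at Tpm1, Tpm2, Tpm3 and Tpm4 (panels) in each library (rows), by distance in kb from the first listed start, with the gene as a grey bar and listed starts as dotted lines. Circle area is proportional to fold enrichment. The Tpm1 peaks of both WT libraries lie near 5 kb, with folds of 9.05 and 8.26, and the Tpm3 peaks cluster at its second listed start.

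All 4 troponin genes had a peak in the second WT library, the deepest, and 2 of them (Tnnt2 and Tnni1) in the first. Of the miR-187 libraries, the first had a peak at Tnni1 only and the second, the shallowest, at none of the 4. Among all protein-coding genes, 38%, 47.1%, 33.5% and 6.75% had a peak in the 4 libraries. Tnni1 encodes the slow skeletal troponin I, which is also the form of the fetal and newborn heart. It had a region at chr1:135781283-135781536, before the annotated 5′ boundary of the gene, with a peak in WT replicate 2 (fold enrichment 5.17) and in miR-187 replicate 1 (4.58). WT replicate 1 had its Tnni1 peak at the other end, at chr1:135811332-135811586 (7.33-fold, percentile 91.2), between Tnni1 and its neighbour Tnnt2. The other Tnni1 peaks were in 1 library each, at chr1:135789954-135790153 inside the gene in miR-187 replicate 1 (5.91-fold, percentile 70.0) and at chr1:135778969-135779327 before it in WT replicate 2 (4.17-fold). Tnnt2, the cardiac troponin T gene that binds the complex to tropomyosin, had 1 weak peak in each WT list at different places (4.29-fold and 4.58-fold). Tnnc1, the calcium-binding troponin C of heart and slow muscle, had a peak in WT replicate 2 whose summit lay 2631 bp before its start, with a −log10 q of 11.2 and a percentile of 94.9. Tnni3, the adult cardiac troponin I, had 1 peak in WT replicate 2, 8247 bp beyond the gene (4.09-fold).

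The heavy chain genes Myh6 and Myh7, which encode the cardiac myosin motors, had no peak in any library. Peaks at the light chains lay in single libraries at each place. Myl2, the ventricular regulatory light chain, had a peak in miR-187 replicate 1 at 3617 bp before its start (5.81-fold) and another in WT replicate 1 at 988 bp beyond its 3′ end (6.33-fold). Myl4, the atrial essential light chain, had a peak at 116 bp after its start in WT replicate 2 (3.67-fold, percentile 3.29), and that peak also lay at a start of Cdc27. Myl3, the ventricular essential light chain, and Myl7, the atrial regulatory light chain, each had 1 peak outside the gene in WT replicate 2. Mybpc3, the cardiac myosin binding protein, had 1 in miR-187 replicate 1, at a boundary of Spi1.

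Of the actin filament genes, Actc1 and Acta1, the sarcomeric actins, and the nucleator Lmod2 had no peak. Xirp1, which encodes an actin-binding protein of the intercalated disc, had a region at chr9:120027595-120028154 with a peak in WT replicate 1 (5.10-fold) and miR-187 replicate 1 (7.95-fold). In miR-187 replicate 1 this was the highest ranked peak at any of the 37 genes, at percentile 93.3. On the other side of Xirp1, miR-187 replicate 1 had a peak at chr9:120009320-120009519 (5.23-fold) and WT replicate 2 one at chr9:120011116-120011530 (3.47-fold). Nexn, which encodes the actin-binding protein nexilin, had 1 peak in WT replicate 2 (4.89-fold). Among the Z-disc, titin and M-band genes, Actn2, Ttn, Csrp3 and Myom2 had none, and Ldb3, Tcap and Des had 1 peak each in 1 library. The Des peak, at the gene of the intermediate filament protein desmin, lay 38 bp before the start in WT replicate 2 (4.87-fold). Myom1, an M-band crosslinker, had a WT-only region at chr17:71002008-71002927 (5.32-fold in WT replicate 1 and 4.69-fold in WT replicate 2), which lies at a start of Myl12a, a non-muscle myosin light chain gene, with summits at −16925 and −17293 bp from the listed Myom1 start. WT replicate 1 alone had 2 more peaks there, at chr17:71117970-71118208 inside the gene (6.16-fold) and at chr17:71135138-71135410 beyond its 3′ end (5.66-fold).

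The calcium-handling genes gave peaks at 4 of 6 genes in both WT libraries and the first miR-187 library, and at 1 of 6 in the second miR-187 library. Among all protein-coding genes, 38%, 47.1%, 33.5% and 6.75% had a peak. Ryr2, Cacna1c and Slc8a1 are longer than 100 kb, so more sequence was searched at them than at most genes. Atp2a2, the calcium pump of the sarcoplasmic reticulum, had a region at chr5:122501999-122502744, at its boundary of higher coordinate, with a peak in 3 libraries. The fold enrichment was 6.11 and 5.06 in WT and 4.44 in the first miR-187 library, and the percentile ranks were 75.9, 60.7 and 8.79. Cacna1c, the pore of the L-type calcium channel, had a region in the same 3 libraries at chr6:119175026-119175778, with 4.84-fold, 4.34-fold and 3.98-fold enrichment. That region is inside Cacna1c but also at a start of Dcp1b, a gene that overlaps it. Cacna1c held the only peak of miR-187 replicate 2 at any of the 37 genes, at chr6:119054426-119054625 (5.38-fold, 6 reads), and no other list had a peak there. Cacna1c had 3 more peaks in single libraries, in WT replicate 1 at chr6:118632582-118632781 (5.15-fold) and chr6:119037133-119037332 (4.44-fold), and in miR-187 replicate 1 beyond the 3′ end at chr6:118583122-118583321 (5.70-fold).

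Slc8a1, the sodium-calcium exchanger, had a WT-only region deep inside the gene at chr17:81469075-81469381. The fold enrichment was 5.95 in WT replicate 1 and 7.14 in WT replicate 2, with percentile ranks of 70.5 and 87.8, the next highest of the WT-only regions after Tpm1. A second region, at chr17:81712221-81712696, had a peak in WT replicate 1 (5.88-fold) and miR-187 replicate 1 (4.93-fold). Inside the same gene, miR-187 replicate 1 alone had peaks at chr17:81580089-81580288 (5.36-fold) and chr17:81605174-81605373 (3.90-fold), and WT replicate 2 alone had one at chr17:81669674-81669964 (5.12-fold). Ryr2, the calcium release channel, had 2 weak peaks in WT replicate 1 and 1 in miR-187 replicate 1, all inside its 553847 bp and none overlapping. Casq2, which binds calcium in the reticulum, had 1 peak in WT replicate 2, and Pln, the inhibitor of the calcium pump, had none. The natriuretic peptide genes Nppa and Nppb had no peak, and Myocd, a coactivator of serum response factor, had 1 peak in miR-187 replicate 1 (5.56-fold).

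Sorted by the libraries that held them, the 65 peaks fell into 50 regions. Of these, 37 (74%) had a peak in 1 library, 11 in 2 libraries and 2 in 3 libraries, and over all protein-coding genes 64.0% of regions had a peak in 1 library. There were 5 WT-only regions (10% of 50), at Tpm1, Tpm2, Tpm4, Slc8a1 and Myom1, where 9.51% of all regions were WT-only. With a −log10 q of at least 5, or with an equal number of peaks per list, 1 was left (Tpm1). Tpm1 was picked for its rank by −log10 q, so that it was left at these settings was fixed by the choice. The share of all regions that were WT-only at these settings is not given here. With either WT library left out there were 18 WT-only regions at the contraction genes. As genes, 5 of 37 had a WT-only region, beside 10.5% of all genes. No region was miR-187-only (a peak in both of those lists and in neither list of WT), which 0.178% of all genes had. Shared between the groups were 8 regions (16%, against 26.3% of all regions), at Tpm3 (2 regions), Tpm4, Tnni1, Xirp1, Atp2a2, Cacna1c and Slc8a1, and each of these had its miR-187 peak in replicate 1.

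The same 5 regions were WT-only without the second miR-187 library, because it had no peak in any region that both WT lists held. Left as the only library of its group, the first miR-187 library then had 11 regions that neither WT list held. The miR-187-only regions thus numbered 11 instead of 0. This asks for 1 miR-187 list but for both WT lists, so the 11 and the 5 cannot be compared. By themselves, WT replicate 1 held 12 regions and WT replicate 2 held 13. Of 7 regions that both WT lists held, 2 (Atp2a2 and Cacna1c) also had a peak in the first miR-187 library and 5 (71.4%) were WT-only, where 41.7% of 3831 such regions over all protein-coding genes were. The Tpm1 region that led to the list is among the 5, and without it the count was 4 of 6. Rescaled to the depth of miR-187 replicate 1, the pileup of WT replicate 1 reached the needed number at all 5 WT-only regions, and that of WT replicate 2 at 2 of 5 (Tpm1 and Slc8a1). The former was largely fixed in advance, since miR-187 replicate 1 has 1.15 times the density of WT replicate 1 and rescaling raises these pileups. At the depth of miR-187 replicate 2 it was reached at 3 of 5 from WT replicate 1 and at 1 of 5 (Tpm1) from WT replicate 2. At Tpm2, for example, the pileup of WT replicate 2 came to 3.86 and 1.98 reads at the depths of the miR-187 libraries, where 6 and 5 were needed. All 5 regions were taken because both WT lists held a peak there, so these numbers support nothing about the missing peaks.

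**Figure D3:**
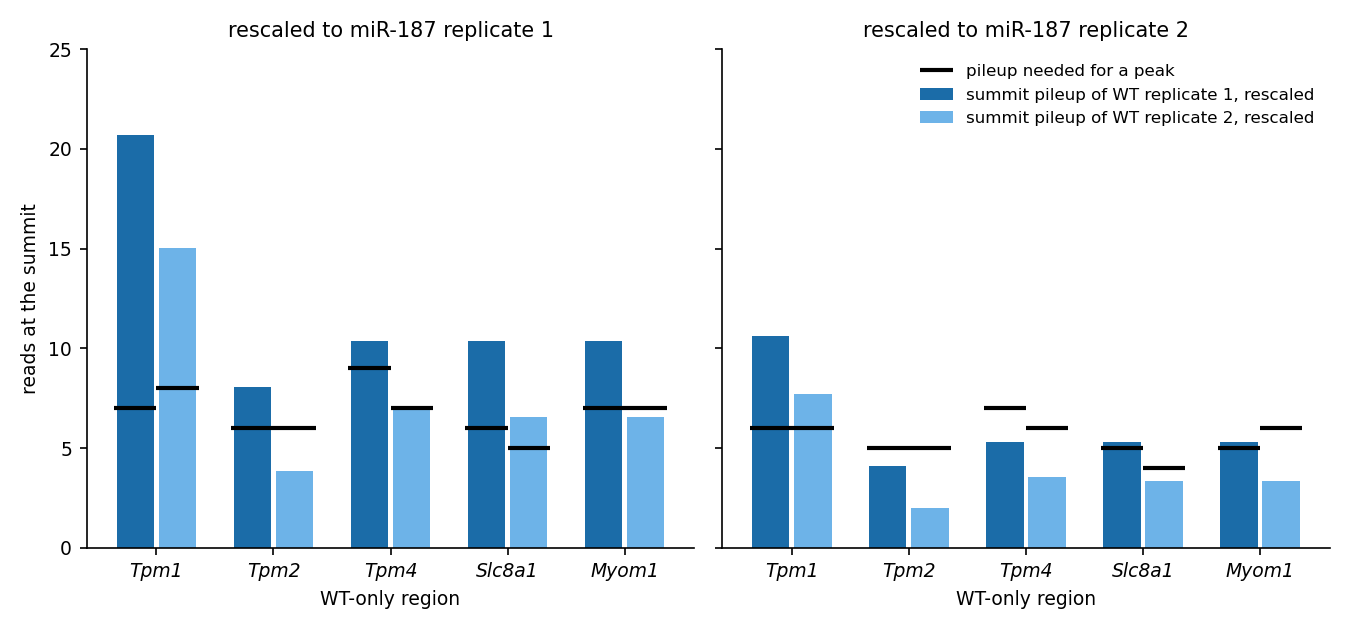
Summit pileups (reads) of the 5 WT-only regions, rescaled from WT replicate 1 (dark bars) and WT replicate 2 (light bars) to the background density of each miR-187 library (panels), with black lines at the pileup a peak needed there. The bars stand above the line in all 4 cases at Tpm1, which was picked for a rank that rests on the same pileups. The dark bars for miR-187 replicate 1 were largely bound to pass, since WT replicate 1 is the shallower of these libraries.

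Start windows of the contraction genes held few CpG, as did those of most other lists. The 40 listed starts had a median of 6 CpG in 300 bases (range 1 to 57), against 13 for 21263 listed starts of all protein-coding genes. The median was 5 for the further contraction genes, 5.5 for the skeletal muscle isoforms, 6.5 for the endothelial markers, 5 for fibroblast genes and 4 for immune and erythroid genes, and 19 for non-muscle contractile genes such as Actb and Myh9. Windows with 10 or more CpG made up 25% of them and 56.8% of all. Some genes have several starts, and the windows of Ldb3, Myh7 and Tnni1 overlap in pairs, so these are not 40 separate sequences. In any library, 5 of the 40 starts (12.5%) had a peak within 1 kb, against 38.9% of all. Those 5 were Tpm2, Tpm3 (internal), Tpm4, Des and Myl4, with 11 to 31 CpG and a median of 20. The share with a peak was 8.33% for the further contraction genes and the skeletal muscle isoforms. It was 21.4% for the endothelial markers and 0% for immune and erythroid genes. For fibroblast genes, which also had few CpG, it was 66.7% (4 of 6), and for non-muscle contractile genes 75%.

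Among all listed starts, 3.93% of those with 0 to 4 CpG had a peak in any library, 19.4% with 5 to 9, 52.3% with 10 to 19 and 66.9% with 20 or more. Of the contraction gene starts in these classes, 0 of 12, 0 of 18, 2 of 5 and 3 of 5 had one. Most of the contraction gene starts were thus in the classes where few starts of any gene had a peak. Exceptions were Tpm1 (27 CpG), an internal Cacna1c start (57 CpG), Actn2 (19), Ryr2 (18) and Acta1 (12), which had 10 or more CpG and no peak within 1 kb. The part of CpG count in the low share was not tested.

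**Figure D4:**
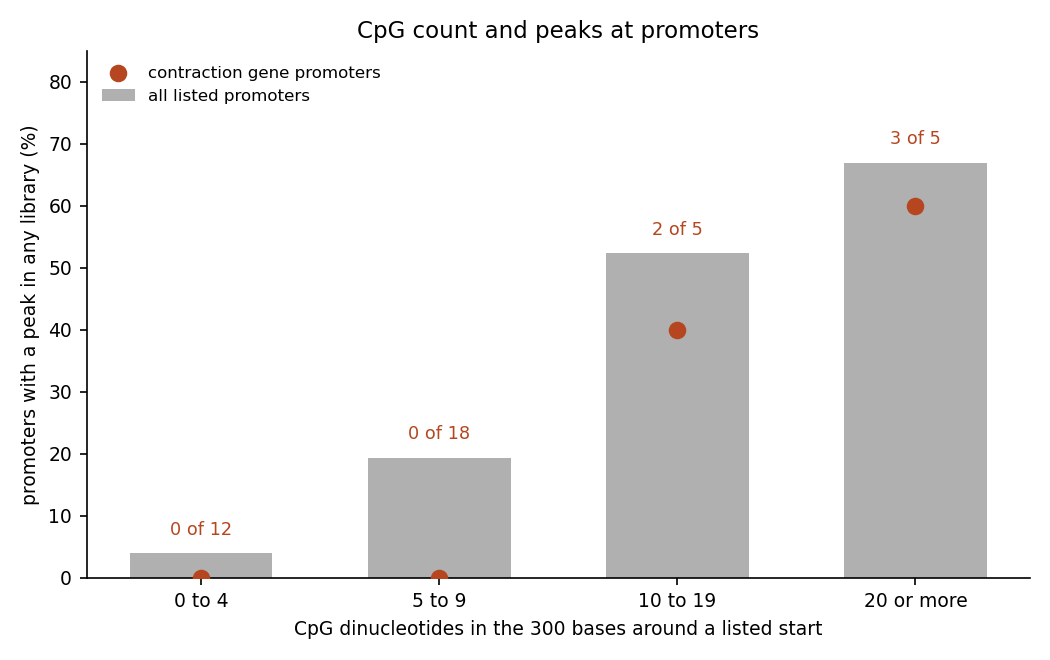
Share of listed starts with a peak within 1 kb in any library (%), by the number of CpG dinucleotides in the 300-base window. Grey bars show all protein-coding genes and points the contraction genes, with their counts. None of the 30 contraction gene starts with fewer than 10 CpG had a peak.

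The windows were also searched on both strands for 7 short motifs. A CArG box, the site of serum response factor, was in 7 of 40 windows (17.5%) against 1.52% of all, at 6 genes (Acta1, Actc1, Ldb3, Myl3, Myl7 and Myom1). The windows of Ldb3 overlap and hold the same box. None of these starts had a peak within 1 kb in any library. Over all genes, 89 of 324 windows with the box had one, so most such windows had none. The share of windows with the box was 18.8% (3 of 16) for the non-muscle contractile genes, of whose 16 starts 12 had a peak. It was 8.33% for the further contraction genes and for the skeletal muscle isoforms, so the box was not particular to the 37 genes. The windows of the 2 sarcomeric actins, with the box in capitals, were as follows (RefSeq, GRCm38.p6, 5′ to 3′).
Actc1, chr2:114052826-114053125, minus strand: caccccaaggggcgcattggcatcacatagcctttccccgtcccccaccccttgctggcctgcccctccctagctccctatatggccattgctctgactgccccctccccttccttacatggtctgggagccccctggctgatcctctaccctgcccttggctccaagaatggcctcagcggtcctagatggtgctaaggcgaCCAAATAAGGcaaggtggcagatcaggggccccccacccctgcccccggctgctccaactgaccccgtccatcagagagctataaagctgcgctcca
Acta1, chr8:123894726-123895025, minus strand: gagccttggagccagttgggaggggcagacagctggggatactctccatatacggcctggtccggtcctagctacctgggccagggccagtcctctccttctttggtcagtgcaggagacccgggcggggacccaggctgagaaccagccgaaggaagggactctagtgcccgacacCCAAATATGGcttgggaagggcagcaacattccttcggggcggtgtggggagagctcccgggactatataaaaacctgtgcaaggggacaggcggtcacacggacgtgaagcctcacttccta

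Relative to the start, the boxes began at −47 in Actc1 and at −73 in Acta1. A MEF2 site was in 7.5% of windows (2.74% of all), GATA in 77.5% (53.2%), the E-box CANNTG in 92.5% (69.0%), CATTCC, the core of the TEAD site, in 25% (13.6%), TATAAA in 17.5% (12.6%) and GGGCGG, the core of the SP1 site, in 25% (46.2%). These letters can overlap, as TATAAA can within a MEF2 site. 

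Several places just beyond 10 kb show how the window decides the counts. The last peak inside it, at Tcap, lay 8678 bp from the gene. The nearest ones outside included a group at Actn2 (11252, 11300 and 11320 bp away, with folds of 7.0, 5.41 and 6.10 in the first 3 libraries) and a group at Myl3 (11654, 11766 and 11749 bp, with 9.31, 9.11 and 7.87 in the same order). All 6 were above the median fold of the peaks inside the window in their library, which was 5.15, 4.81 and 5.26. Peaks at Xirp1 at a similar distance were below it. They lay 11251 bp away in WT replicate 1 (4.5-fold) and 11411 bp away in miR-187 replicate 1 (4.79-fold). Peaks just beyond the window were thus not uniformly stronger than those inside. Among peaks at the 37 genes, the median percentile rank was 49.4, 34.2 and 34.1 in the first 3 libraries, and the single peak of the second miR-187 library was at 49.9. Of the 65 peaks, 7 ranked above percentile 90. A width of 200 bp, the narrowest in the lists, was found for 20 of 65 peaks (30.8%), against 20.4% of all peaks.

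Other muscle genes were set beside these. Of 32 further contraction genes, 9, 12, 10 and 4 had a peak in the 4 libraries (28.1%, 37.5%, 31.2% and 12.5%). Among all protein-coding genes the shares were 38%, 47.1%, 33.5% and 6.75%. Of the 32 genes, 4 had a region with a peak in 3 or more libraries. Asph, which encodes junctin and the aspartyl hydroxylase, had a peak 33 bp from its boundary in all 4 libraries, with folds of 6.52, 6.25, 10.2 and 5.26. In miR-187 replicate 1 this peak was at percentile 99.8. The kinase gene Camk2d (5.56, 4.88 and 7.58), the Z-disc gene Pdlim5 (5.17, 6.22 and 5.77) and Synpo2l (4.44, 4.73 and 5.13) had regions in the first 3 libraries. Of 17 skeletal muscle isoform genes, such as the fast myosins and the skeletal ryanodine receptor, 3, 6, 3 and 0 had a peak (17.6%, 35.3%, 17.6% and 0%). At a listed start, 0, 1, 0 and 0 of 12 had one (0%, 8.33%, 0% and 0%), against 22.4%, 32.2%, 21% and 3.23% of all genes with a listed start.

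The non-muscle counterparts of the same machinery gave higher counts. Of 16 genes such as Actb, Myh9, Myl6, Actn1, Flna and Vcl, 12, 13, 11 and 3 had a peak (75%, 81.2%, 68.8% and 18.8%). Among all protein-coding genes the shares were 38%, 47.1%, 33.5% and 6.75%. At a listed start, 8, 7, 5 and 1 of 14 had one (57.1%, 50%, 35.7% and 7.14%), against 22.4%, 32.2%, 21% and 3.23% of all genes with a listed start. Per Mb they had 20.7, 23.7, 18.6 and 3.10 peaks, where the contraction genes had 6.12, 7.0, 5.54 and 0.291. At Actn1 and Actn4, the non-muscle alpha-actinin genes, a region was held by the first 3 libraries, whereas the muscle gene Actn2 had no peak within 10 kb. The same 3 libraries had peaks 11252, 11300 and 11320 bp from Actn2, so this contrast rests on the window. In each library the non-muscle list thus had the larger share of genes with a peak, and no test was made of this difference.

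Beside these counts stand the markers of other cell types that a heart library can hold. Of 8 fibroblast genes, 4, 5, 2 and 0 had a peak (50%, 62.5%, 25% and 0%). Of 6 immune genes, 3, 1, 1 and 0 had one (50%, 16.7%, 16.7% and 0%). Of 4 smooth muscle genes, 0, 1, 0 and 2 had one (0%, 25%, 0% and 50%). Among all protein-coding genes the shares were 38%, 47.1%, 33.5% and 6.75%. Shares of cell types cannot be read from such counts, and the part of cell composition in the results was not tested. In these bulk libraries, fewer cells of a type and less accessible chromatin per cell cannot be told apart.

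**Figure D5:**
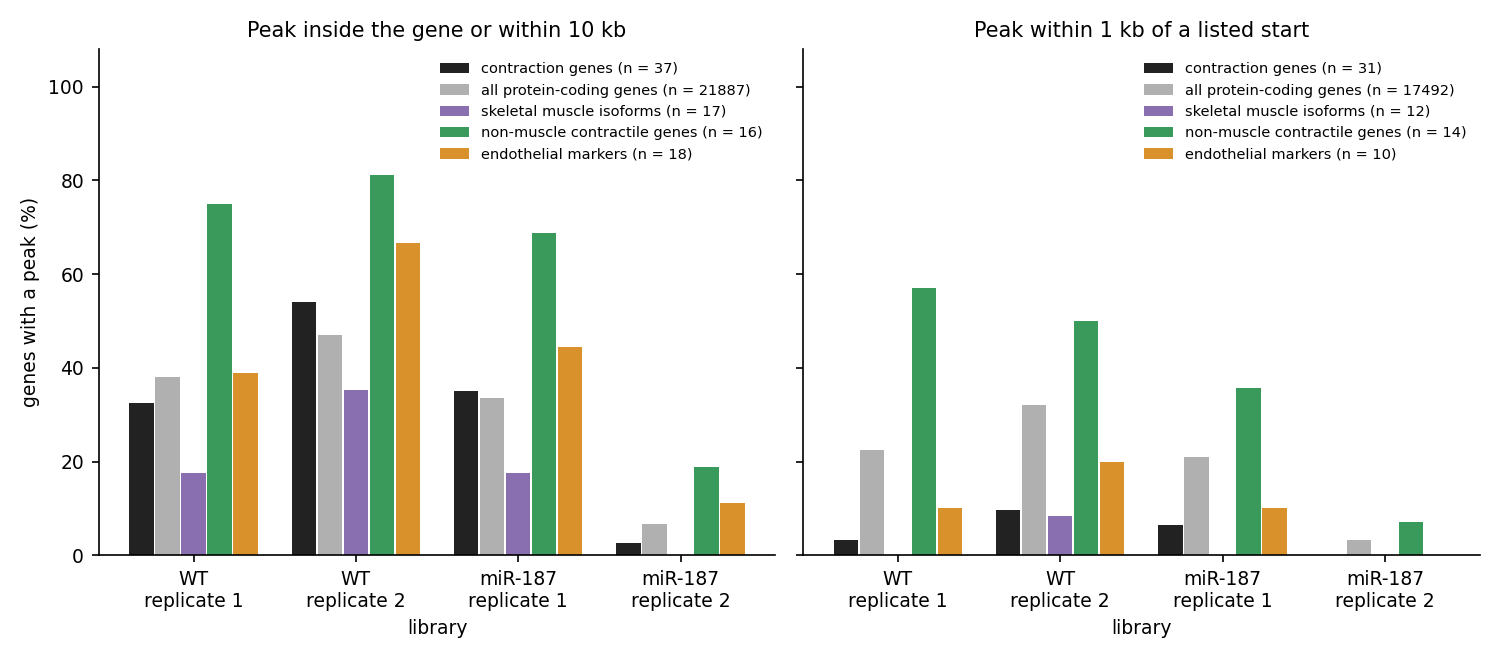
Share of genes with a peak (%) in each library, for a peak inside the gene or within 10 kb (left) and within 1 kb of a listed start (right). Bars show the contraction genes, all protein-coding genes, skeletal muscle isoforms, non-muscle contractile genes and endothelial markers, with n in the legend. The contraction genes lie near all genes on the left and below them on the right in each library.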

How the data were processed

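ATAC-seq peak lists of 4 mouse heart libraries (2 WT, 2 miR-187) were used. Per the submitters' processing notes, the authors' tools included Bowtie2 2.2.6, SAMtools 1.10, deepTools 3.3.2, MACS2 2.2.7.1 and HOMER 4.11 with the mm10 build, and their settings, filters and any control are not given in the sources used here. Each deposited list gave, for each peak, a fold enrichment (a ratio to background), a −log10 p and −log10 q, and a score that was not used. Replicates were not pooled by the authors, and the lists held peaks with a q of at most 0.05. Each library held 50000 cells, per the labels.

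Only the 19 autosomes and chromosomes X and Y were used, which left out 6, 20, 6 and 0 peaks. Genes came from a RefSeq table of GRCm38.p6 (mm10), which gives boundaries, and starts from a RefSeq promoter table of the same build. An overlap of 1 bp or more joined peaks of different lists into a region, called WT-only when both WT lists and neither miR-187 list held a peak.

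Depth was inferred by solving each peak's fold, as (pileup + 1)/(background + 1), and its p, as the Poisson tail above the pileup. The lowest background over 200 bp gave reads per Mb. This was tested on simulated data, with a result that is not given here, and the number of reads sequenced is unknown. Values rescaled between libraries are arithmetic on these inferred numbers. No test between groups was run, since the members were chosen from this contrast.

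The members and gene lists were chosen with earlier results of these data known. Named in full were Tpm1 and each member with a region in 2 or more libraries. The other members were named with their counts, and other genes only where a region of a further contraction gene had a peak in 3 or more libraries. Actn1, Actn4 and the peaks beyond 10 kb were named after their values were seen. The alternatives were a −log10 q of at least 5, an equal number of peaks per list, windows of 0, 3 and 50 kb, any overlap, a reciprocal overlap of 50%, thinning to the shallowest depth, and leaving out each library. The software was Python 3.11.15 with scipy 1.17.1, pandas 2.3.3, numpy 2.4.6 and matplotlib 3.10.9.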

Additional observations from a re-analysis of the deposited data

How the results depend on the processing

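Of 56 values under alternatives, 46 moved by less than the spread between libraries, or for counts by less than 1.5 times. Some of the 46 had no room to move. The mean WT fold at Tpm1 rests on WT peaks alone and changed only when a WT library was left out. The spread itself came from 2 libraries per group and was wide. The number of WT-only regions at the contraction genes, 5 as reported, was 1 (Tpm1) with a −log10 q of at least 5, 1 with an equal number of peaks per list, 3 inside the gene only, 13 with a window of 50 kb and 3 with a reciprocal overlap of 50%. Leaving out each library gave 5 to 18 WT-only regions and 0 to 11 miR-187-only regions, 18 without either WT library and 11 without miR-187 replicate 2, where a single library then stands for its group. Without miR-187 replicate 2 there were 11 miR-187-only and 5 WT-only regions (0 and 5 as reported). A region then needed 1 miR-187 list but both WT lists, so the order of these counts does not compare the groups. The share of peaks at the gene's own start or boundary, 21.5%, was 8.33% with a window of 50 kb, because the wider window adds only distant peaks, and 20.5% to 22.0% without each library. The difference in genes with a peak (WT mean minus miR-187 mean), 9, ranged from 3 to 15 without each library, and thinning to the depth of miR-187 replicate 2 gave 2.36. It was 3.5 with a −log10 q of at least 5 and 2 with an equal number of peaks per list. The mean WT fold at Tpm1 was 8.26 to 9.05 without each WT library. No paired analysis was made, because no test was run on the contrast that chose the genes.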

Other observations

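Peaks of 1 library made up 37 of the 50 regions at the contraction genes (74%, against 64.0% of all regions at protein-coding genes). WT replicate 2 alone held 13 of them, WT replicate 1 alone 12, miR-187 replicate 1 alone 11 and miR-187 replicate 2 alone 1. The 2 WT libraries shared 7 regions, and miR-187 replicate 1 shared 6 with WT replicate 2 and 4 with WT replicate 1. Counts by pair of libraries over all genes are not given here.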
